A study of Mus musculus with 15 samples.

Results

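The nuclear genes for subunits of the oxidative phosphorylation complexes were examined in mouse cerebellum. Members were chosen by symbol alone: genes of the Ndufa, Ndufb, Ndufc, Ndufs and Ndufv series, Sdha to Sdhd, all Uqcr genes, the Cox4 to Cox8 series and all Atp5 genes. The rule took 84 of the 24421 genes listed, 37 for complex I, 4 for complex II, 8 for complex III, 18 for complex IV and 17 for complex V. Of these, 82 passed a filter on low counts and were tested. Ndufs5 and Cox8c were listed at 0 in all 15 libraries and were not tested.

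All animals were on the FVB strain, and RNA-seq was run on whole cerebellum, 5 libraries for each of 3 genotypes. The groups were wild type, Pcp2-ATXN1[82Q] and Pcp2-ATXN1[82Q]V591A;S602D. The transgenes encode ataxin-1 with 82 glutamines, the expanded protein that causes spinocerebellar ataxia type 1, and the Pcp2 promoter drives their expression in Purkinje cells, a small part of the cells of the tissue. The substitutions V591A and S602D weaken the binding of ataxin-1 to the repressor Capicua, and that line is called the substituted line here. No source used here gives the age of the mice, the number of founder lines or whether each library came from its own mouse. The p-values therefore measure the spread between these libraries, which may be technical in part.

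Oxidative phosphorylation takes place in the inner mitochondrial membrane. Complexes I and II pass electrons from NADH and succinate to ubiquinone, complex III passes them on to cytochrome c, and complex IV gives them to oxygen. Complexes I, III and IV pump protons, and complex V, the ATP synthase, uses the return flow of protons to make ATP. A few core subunits are encoded in mitochondrial DNA and most of the others in the nucleus. Several complex IV subunits exist as isoforms of different tissues. Neurons depend strongly on this pathway, and a bulk cerebellar library pools the transcripts of Purkinje cells with those of granule cells, interneurons and glia.

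The libraries held 36467948 to 42818401 reads on genes. The choroid plexus gene Ttr ranged from 4.26 to 4869 CPM (reads on the gene scaled to the library total, with TMM factors), and was under 100 CPM in 7 libraries, 3 of wild type, 2 of ATXN1[82Q] and 2 of the substituted line. The female transcript Xist was at 1056 to 1468 CPM in wild-type libraries 1 and 3, ATXN1[82Q] 1 and 2 and substituted 1 and 4. In the others it was at most 0.878 CPM. Each genotype therefore held libraries of both sexes, and sex was not a term in any fit. Of 20 Purkinje cell markers, 17 were lower in ATXN1[82Q] (14.9% of all genes) and 12 in the substituted line (1.2%) than in wild type. Summed, they reached 13956 to 15501 CPM in wild type, 6893 to 7412 CPM for ATXN1[82Q] libraries and 10056 to 13283 CPM in the substituted line, and none was at 0. Against wild type, ATXN1[82Q] had 12 of 15 granule cell markers lower (14.9% of all genes) and 12 of 12 microglia markers higher (16.6%). Also higher there were 7 of 12 molecular layer and Golgi interneuron markers and 7 of 11 oligodendrocyte markers. Of 13 Bergmann glia and astrocyte markers, 6 were higher and 3 lower. Fewer cells of a type and less RNA per cell cannot be told apart in bulk tissue, and the part of cell composition in the results below was not tested.

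Nearly all members were abundant. Levels between genes were compared as RPKM, the scaled CPM per kilobase of annotated exon. The length counts every annotated exon, so genes with many retained introns read low. In wild type, the median over the members was 72.4 RPKM. The highest were Cox8a, a small nuclear subunit of complex IV, at 659.9 ± 37.9 RPKM (SD, n = 5), Cox6a1 at 524 ± 11.5 RPKM and Cox6b1 at 384 ± 7.53 RPKM. The catalytic beta subunit of ATP synthase, Atp5b, stood at 383 ± 3.81 RPKM beside the alpha subunit Atp5a1 at 367 ± 3.62 RPKM and the gamma subunit Atp5c1 at 167 ± 3.76 RPKM. Cox6b1 and Atp5b differed by less than their SD, so their order is not resolved.

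In complex I, Ndufa4 was highest at 255.9 ± 10.7 RPKM. Its protein is now placed with complex IV, although its symbol put it in complex I here. Its relative Ndufa4l2 was lowest at 1.59 ± 0.141 RPKM. In complex II, the flavoprotein Sdha was highest at 128 ± 1.67 RPKM and the membrane anchor Sdhc lowest at 28.7 ± 0.999 RPKM. In complex III, Uqcrh, the hinge protein, was highest at 226 ± 10.2 RPKM and Uqcrq lowest at 55.2 ± 3.17 RPKM. The lowest complex V gene was Atp5s at 8.33 ± 0.284 RPKM, which is not a subunit of the enzyme proper. Atp5sl is named Dmac2 in the annotation, so its place in complex V rests on its older symbol alone.

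Isoforms of complex IV separated by level. Cox4i1, the common form of subunit 4, stood at 311 ± 14.6 RPKM and Cox4i2, a form best known from lung, at 4.22 ± 0.656 RPKM. The heart and muscle forms Cox6a2, Cox7a1 and Cox8b stood at 0.174 ± 0.0144, 8.34 ± 1.1 and 1.02 ± 0.737 RPKM. Their common counterparts Cox6a1, Cox7a2 and Cox8a stood at 524, 169 and 659.9 RPKM. The testis-enriched Cox6b2 was at 8.24 ± 0.838 RPKM and Cox7b2 at 5.27 ± 0.998 RPKM, against 384 RPKM for Cox6b1 and 163 RPKM for Cox7b. Atp5g1, Atp5g2 and Atp5g3, which encode the same mature c subunit of the ATP synthase ring, stood at 30.5 ± 1.05, 35.3 ± 1.56 and 94.1 ± 2.88 RPKM. Of the 82 tested members, 75 had a mean of at least 10 CPM over all libraries, and 7 did not: Cox4i2, Cox6a2, Cox6b2, Cox7a1, Cox7b2, Cox8b and Ndufa4l2. That limit was chosen after the values were seen.

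**Figure D1:**
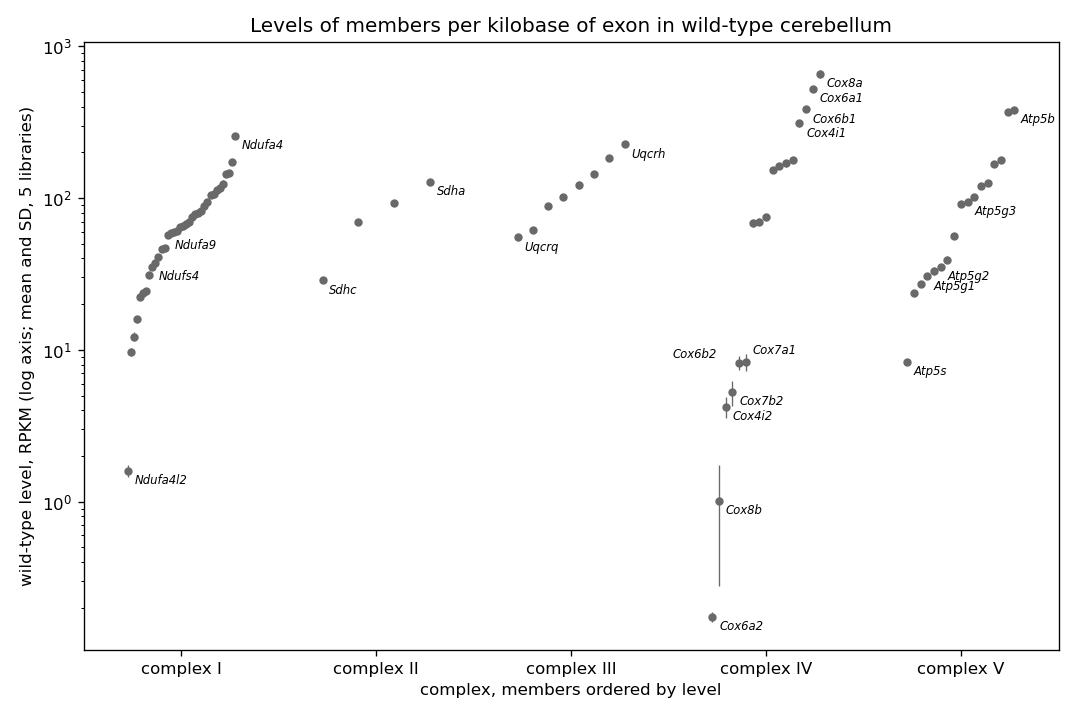
Wild-type level of each detected member in RPKM on a log axis, by complex, with points as means and lines as SD over 5 libraries. Cox8a at 659.9 RPKM is the highest, and the tissue-restricted isoforms of complex IV and Ndufa4l2 lie under 10 RPKM.

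Promoter sequences are shown for a few members that the results below turn on, together with Sdha as a member with 3 copies of a motif. Nuclear respiratory factor 1, ETS factors of the GABP type, YY1 and the estrogen-related receptors are known regulators of these genes. Exact matches on either strand were sought to GCGCANGCG (nuclear respiratory factor 1), CCGGAAGT (ETS), AAGATGGCG (YY1) and TCAAGGTCA (estrogen-related receptor) in RefSeq promoters of 300 bases (250 before the start site and 50 after it, GRCm38.p6). The first of these motifs can match both strands 1 base apart, and a gene was counted once. Of the 84 members, 69 had an entry in the promoter table. The nuclear respiratory factor 1 motif was found in 29.0% of them and in 9.63% of 17492 protein-coding genes with a promoter, the YY1 motif in 11.6% and 2.14%, the ETS motif in 7.25% and 5.69%, and the estrogen-related receptor motif in 2.90% and 0.377%. A match describes letters only. The sequences below are written 5′ to 3′ on the gene's strand, with matches in capitals. Sdha is shown over chr13:74350241-74350490, minus strand, with matches starting 98, 55 and 10 bases before the start site. Cox8a, lower in ATXN1[82Q], is shown over chr19:7217607-7217856, minus strand. Cox6b2, also lower, is shown over chr7:4753095-4753344, minus strand, and holds none of the 4 motifs there. Ndufs4, over chr13:114388045-114388074, and Ndufa9, over chr6:126849095-126849124, both on the minus strand, share the YY1 motif just inside the transcript. That motif was found in 8 of the 69 members, among them Ndufs7, which also holds it just inside the transcript and was not called.
Sdha: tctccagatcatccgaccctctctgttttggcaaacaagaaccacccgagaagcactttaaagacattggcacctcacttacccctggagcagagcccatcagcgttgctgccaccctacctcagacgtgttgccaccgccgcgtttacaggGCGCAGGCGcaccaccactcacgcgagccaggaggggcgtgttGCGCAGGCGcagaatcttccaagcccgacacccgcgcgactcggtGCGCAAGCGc
Cox8a: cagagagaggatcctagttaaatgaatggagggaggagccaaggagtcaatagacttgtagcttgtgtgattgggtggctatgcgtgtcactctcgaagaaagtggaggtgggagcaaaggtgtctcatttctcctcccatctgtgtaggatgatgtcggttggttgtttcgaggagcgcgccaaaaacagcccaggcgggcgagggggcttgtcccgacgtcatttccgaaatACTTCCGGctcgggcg
Cox6b2: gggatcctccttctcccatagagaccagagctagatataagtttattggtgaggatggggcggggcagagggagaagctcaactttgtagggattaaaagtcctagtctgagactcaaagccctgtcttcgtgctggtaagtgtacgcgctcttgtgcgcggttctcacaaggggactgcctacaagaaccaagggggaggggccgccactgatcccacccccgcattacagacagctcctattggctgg
Ndufs4: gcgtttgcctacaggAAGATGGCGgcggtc
Ndufa9: ttgtgggagAAGATGGCGgccgccgtccgc

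Against wild type, the members moved little in ATXN1[82Q]. Of 82 tested, 9 passed the edgeR quasi-likelihood test (p adjusted by Benjamini-Hochberg over all genes, threshold 0.05), beside 31.5% of the 15843 genes tested. The 1 called higher, beside 16.6% of all genes, was Cox6a2, which passed the filter on low counts only through the ATXN1[82Q] libraries, so that a higher value there was a condition of its being tested. The 8 that fell were Cox4i2, Cox6b2, Cox8a, Cox5a, Ndufs4, Ndufa4, Ndufa9 and Atp5f1, 9.76% of members beside 14.9% of all genes. Cox6a2, Cox4i2 and Cox6b2 were low-level isoforms. Among the 75 members with a mean of at least 10 CPM, 6 fell and 0 rose, 8.0% beside 32.8% of the 10372 genes at that level. At an unadjusted p under 0.05, 3 of the 82 were higher and 14 lower, beside 22.2% and 19.8% of all genes. The log2 fold changes of the 75 lay between -0.18 and 0.14, so every one was within 0.2 of 0, as were 78.6% of all genes at that level. Their 95% intervals together spanned -0.28 to 0.27. Of the 82, 58 (70.7%) had a log2 fold change below 0, beside 48.2% of all genes tested. The median was -0.03, beside a median of 0.01 over all genes tested and -0.03 over those with at least 10 CPM.

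The substituted line was compared with the same wild-type libraries, so the 2 comparisons share their controls. Ndufs4 was the 1 member called, 1.22% of members beside 1.41% of all genes (1.2% lower), and 0 members rose, beside 0.208% of all genes. At an unadjusted p under 0.05, 19 of 82 were lower and 0 higher, beside 6.28% lower and 5.45% higher over all genes. The 19 were 7 genes of complex I, 1 of complex III, 6 of complex IV and 5 of complex V. DESeq2 called 6 members lower, 7.32% beside 1.96% of all genes, and 0 higher, beside 0.644%. Log2 fold changes of the 75 members with at least 10 CPM lay between -0.16 and 0.07, with 95% intervals from -0.25 to 0.17. Every one was within 0.2 of 0, as were 95.6% of all genes at that level. Of the 82, 69 (84.1%) were below 0, beside 47.3% of all genes. Their median was -0.04, beside 0.01 over all genes and 0.00 over those with at least 10 CPM. Library 4 of this line had the highest sum in all 5 complexes, so members are not independent and these counts are not separate evidence. All 5 substituted libraries were below all 5 wild-type libraries for 8 members, 9.76% beside 3.16% of all genes (2.03% lower, 1.13% higher): Ndufs1, Ndufs3, Ndufs4, Ndufa5, Ndufb3, Cox6b2, Atp5f1 and Atp5h. In ATXN1[82Q] the groups did not overlap for 8 members, 7 lower and 1 higher, beside 19.2% of all genes (9.79% lower, 9.36% higher). The 7 were Ndufs4, Cox4i2, Cox5a, Cox6b1, Cox6b2, Cox7a1 and Atp5f1, and the higher one was Cox6a2. As Cox6a2 passed the filter only through the ATXN1[82Q] libraries, its lack of overlap was largely set by the filter.

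**Figure D2:**
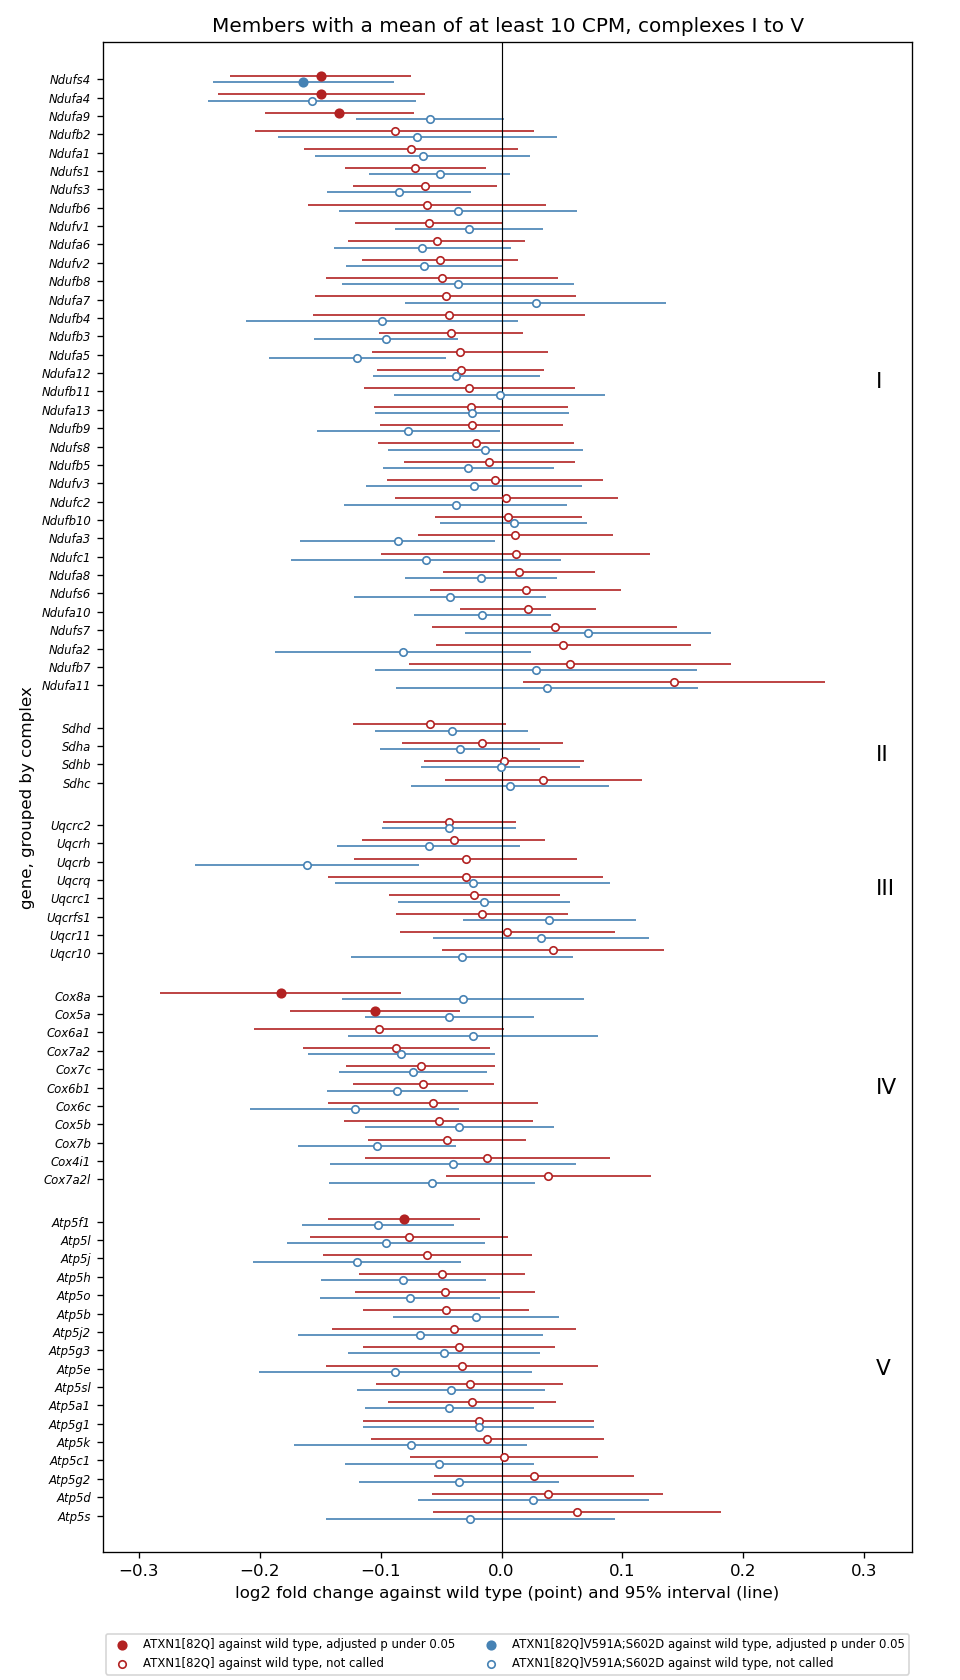
Log2 fold change against wild type (points) with 95% intervals (lines) for members with at least 10 CPM, by complex, in ATXN1[82Q] (red) and the substituted line (blue), with filled points for adjusted p under 0.05. All points lie between -0.18 and 0.14, with 6 filled red points and 1 filled blue point, Ndufs4.

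Summed over the members, the level was 14354 ± 276 CPM in wild type (SD, n = 5), 13937 ± 284 CPM in ATXN1[82Q] and 13891 ± 394.4 CPM in the substituted line. These are 1.44%, 1.39% and 1.39% of the TMM-scaled totals, not of the reads on genes. The ranges overlapped: 14042 to 14766, 13484 to 14252 and 13537 to 14516 CPM. The TMM factors were 0.968 to 0.994 in wild type and 1.02 to 1.04 in ATXN1[82Q]. The lower sums and the small falls of members in ATXN1[82Q] therefore depend on scaling. With RLE size factors, another scaling, 1 member was called higher and 8 lower, beside 16.4% and 15.4% of all genes. A fit without scaling was not run. Complex V held the largest share, with 5283 ± 60.8 CPM in the wild type, 5154 ± 107 in ATXN1[82Q] and 5115 ± 127 in the substituted line. Complex IV held 2862 ± 90.3, 2716 ± 85.8 and 2747 ± 88.6 CPM, and complex II 892 ± 7.49, 884 ± 19.2 and 877 ± 19.8 CPM. No test was made of these sums, whose members were chosen with results known. By complex, the median log2 fold changes in ATXN1[82Q] were -0.03, -0.01, -0.03, -0.06 and -0.03 from I to V, and in the substituted line -0.04, -0.02, -0.03, -0.06 and -0.05.

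**Figure D3:**
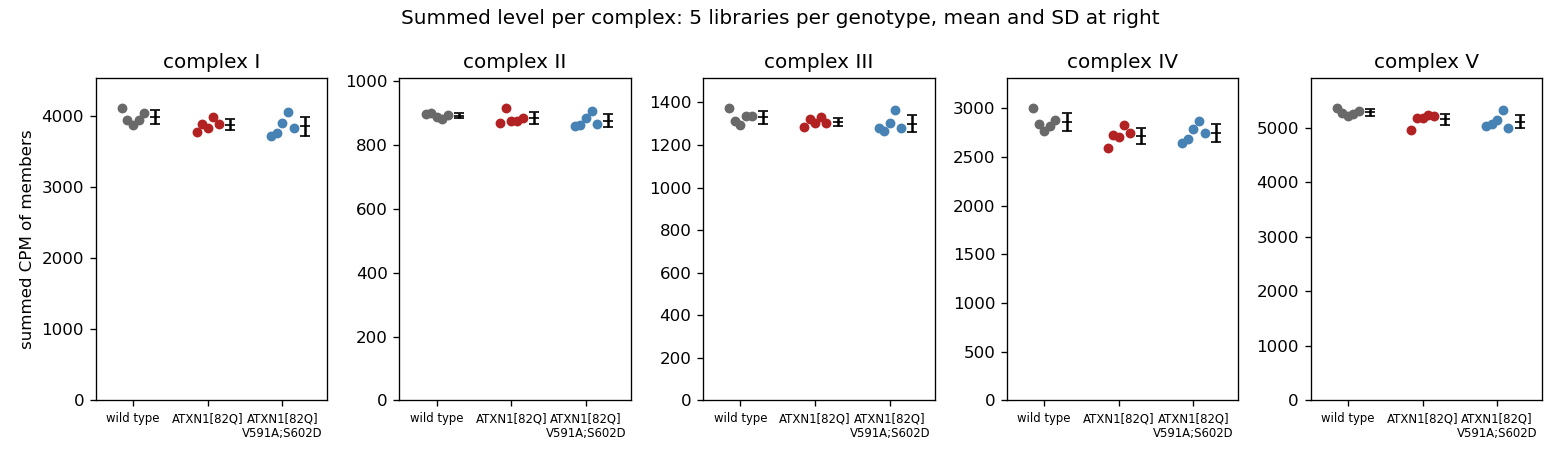
Summed CPM of the members of each complex in each library (points), with mean and SD of the 5 libraries per genotype at the right of each group, on axes from 0. The genotypes overlap in each complex, for example at 5210 to 5368 CPM in wild type and 4967 to 5232 CPM in ATXN1[82Q] for complex V.

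Most catalytic and core subunits showed no call. In complex I, the core subunits Ndufs1, Ndufs3, Ndufs7, Ndufs8, Ndufv1 and Ndufv2 had log2 fold changes of -0.07, -0.06, 0.04, -0.02, -0.06 and -0.05 in ATXN1[82Q], with adjusted p from 0.0586 to 0.709. All 4 subunits of complex II were uncalled in every comparison, and Sdha and Sdhb, which carry the flavin and the iron-sulfur clusters, had log2 fold changes of -0.02 and 0.00 in ATXN1[82Q]. In complex III, the Rieske protein Uqcrfs1 and the core proteins Uqcrc1 and Uqcrc2 were at -0.02, -0.02 and -0.04. In complex IV, Cox4i1 was at -0.01 (95% interval -0.11 to 0.09) and Cox5b at -0.05. In complex V, Atp5a1, Atp5b and Atp5c1 were at -0.02, -0.05 and 0.00.

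Ndufs4 is an accessory subunit of the electron-input arm of complex I whose loss in mice causes a Leigh-like disease. It lies on the minus strand of chromosome 13, 114287795 to 114388258 (GRCm38). It measured 97.6, 95.6, 91.9, 97.6 and 94.5 CPM in the wild type, 86.7, 84.7, 90.9, 85.2 and 82.6 in ATXN1[82Q], and 88.0, 81.5, 83.8, 91.1 and 81.5 in the substituted line. Every library of both transgenic lines was below every wild-type library. The log2 fold changes were -0.15 ± 0.0355 (SE, adjusted p = 0.00403, edgeR) and -0.16 ± 0.0356 (adjusted p = 0.0249). The lines differed by 0.01 (95% interval -0.06 to 0.09). In the substituted line the call was lost when wild-type library 1, 2 or 4, or substituted library 2 or 5, was left out (adjusted p from 0.0624 to 0.0868, log2 fold change -0.16, -0.16, -0.16, -0.15 and -0.15), and with only the 2 genotypes compared in the fit (adjusted p = 0.0509). In the 7 libraries with Ttr under 100 CPM neither call held, at -0.10 (adjusted p = 0.172) in ATXN1[82Q] and -0.17 (adjusted p = 0.199) in the substituted line.

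Ndufa9, a subunit at the junction of the membrane and matrix arms of complex I, measured 122, 116, 124, 114 and 119.7 CPM in wild type and 106, 107, 115, 107 and 108 in ATXN1[82Q]. The groups overlapped through ATXN1[82Q] library 3 and wild-type library 4. The log2 fold change was -0.13 ± 0.0291 (SE, adjusted p = 0.0021). Ndufa4 measured 368, 351, 329.8, 355 and 363 CPM in the wild type, 320.1, 329.9, 309, 329 and 305 in ATXN1[82Q] and 302, 305, 320.4, 343 and 316 in the substituted line. In each transgenic line 1 library lay above the lowest wild-type library. Its log2 fold change was -0.15 ± 0.0408 (adjusted p = 0.0101) in ATXN1[82Q] and -0.16 ± 0.0408 in the substituted line, where it missed the threshold (adjusted p = 0.0754). In the low-Ttr libraries the ATXN1[82Q] calls of both genes were lost, at -0.10 for Ndufa9 (adjusted p = 0.186) and -0.14 for Ndufa4 (adjusted p = 0.1004).

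In complex III, Uqcrb, a small ubiquinone-binding subunit, differed between the transgenic lines. It measured 125, 113, 130.0, 132 and 121 CPM in ATXN1[82Q] and 123, 115, 108, 109 and 112 in the substituted line, with 119 to 132 CPM in wild type. The groups overlapped. Of the 82 members, 4 were called between the lines, 4.88% beside 28.1% of all genes. They were Cox6a2 and Uqcrb, higher in ATXN1[82Q] (13.5% of all genes), and Cox4i2 and Cox8a, lower (14.6%). Groups did not overlap for 3 members, 2 higher (Cox6a2 and Ndufa5) and 1 lower (Cox4i2), beside 17.9% of all genes (8.28% higher, 9.61% lower). Cox6a2 passed the filter only through the ATXN1[82Q] libraries, so its place in these counts was largely set by the filter. Among the 75 members with at least 10 CPM, 2 were called, beside 31.2% of genes at that level. Against wild type, Uqcrb was called in neither line, at -0.03 in ATXN1[82Q] (adjusted p = 0.642) and -0.16 in the substituted line (adjusted p = 0.0945). It was 0.13 ± 0.0439 higher in ATXN1[82Q] than in the substituted line (log2, SE, adjusted p = 0.0343). The call was lost without ATXN1[82Q] library 1, 3 or 4, or without substituted library 2, 3, 4 or 5, with log2 fold changes from 0.11 to 0.13 and adjusted p from 0.0544 to 0.0919. Of the 50-base words of its transcripts, 25.4% also occur in other annotated transcripts, most of them in the pseudogene Gm16089, so its count is uncertain. All 4 calls between the lines were lost in the low-Ttr libraries, where Uqcrb was at 0.13 (adjusted p = 0.203).

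Complex IV held 5 of the 9 calls in ATXN1[82Q], 29.4% of its 17 tested members and near the 31.5% of all genes, beside 8.33% of the members in complex I and 5.88% in complex V. Among the 5 is Cox6a2, which passed the filter only through the ATXN1[82Q] libraries. Cox8a (chromosome 19, 7215153 to 7217616, minus strand) measured 437, 414, 415, 373 and 404 CPM in the wild type, 337, 351, 352, 389.5 and 369 in ATXN1[82Q] and 373, 400.1, 417, 398.1 and 409.8 in the substituted line. ATXN1[82Q] library 4 was above the lowest wild-type library, and the other 4 were below all wild-type libraries. Its log2 fold change in ATXN1[82Q] was -0.18 ± 0.0474 (SE, adjusted p = 0.00724), in the substituted line -0.03 ± 0.0474 (adjusted p = 0.851), and between the lines -0.15 ± 0.0474 (adjusted p = 0.0252). This last call was lost without ATXN1[82Q] library 1 or 2, or substituted library 3 or 5, with log2 fold changes of -0.13, -0.14, -0.14 and -0.14 and adjusted p from 0.0513 to 0.0653. It was also lost with the replicate block (adjusted p = 0.0513), in the low-Ttr libraries (-0.18, adjusted p = 0.156) and without ATXN1[82Q] libraries 2 and 5 together (-0.16, adjusted p = 0.0678).

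Cox5a, the nuclear subunit that binds the regulatory subunit 4, measured 164, 156, 159, 154 and 154 CPM in wild type and 141, 147, 151, 148 and 146 in ATXN1[82Q], with no overlap. The log2 fold change was -0.10 ± 0.0333 (SE, adjusted p = 0.0236). Leaving out ATXN1[82Q] library 1 or 5, or wild-type library 1 or 3, gave -0.09, -0.10, -0.09 and -0.10 and adjusted p from 0.0512 to 0.0584, and the call was also lost in the low-Ttr libraries (-0.10, adjusted p = 0.12) and without ATXN1[82Q] libraries 2 and 5 together (-0.11, adjusted p = 0.0711). Atp5f1, the b subunit of the ATP synthase stalk, measured 373, 372, 373, 376 and 394.96 CPM in the wild type, 344, 361, 361, 362 and 359 in ATXN1[82Q], and 359.6, 351, 350.3, 357 and 342 in the substituted line. Both transgenic groups lay below wild type with no overlap. Its log2 fold change was -0.08 ± 0.0299 (adjusted p = 0.049) in ATXN1[82Q] and -0.10 ± 0.0299 (adjusted p = 0.126) in the substituted line. The first call lay at the threshold and was lost without any 1 of the 10 libraries compared (log2 fold change -0.09 to -0.06, adjusted p from 0.0507 to 0.112). It was also lost in the low-Ttr libraries (-0.09, adjusted p = 0.248), with no count filter, with only the genotypes compared in the fit, with the replicate block, with the brainstem covariate and without ATXN1[82Q] libraries 2 and 5 together (adjusted p from 0.0637 to 0.093).

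**Figure D4:**
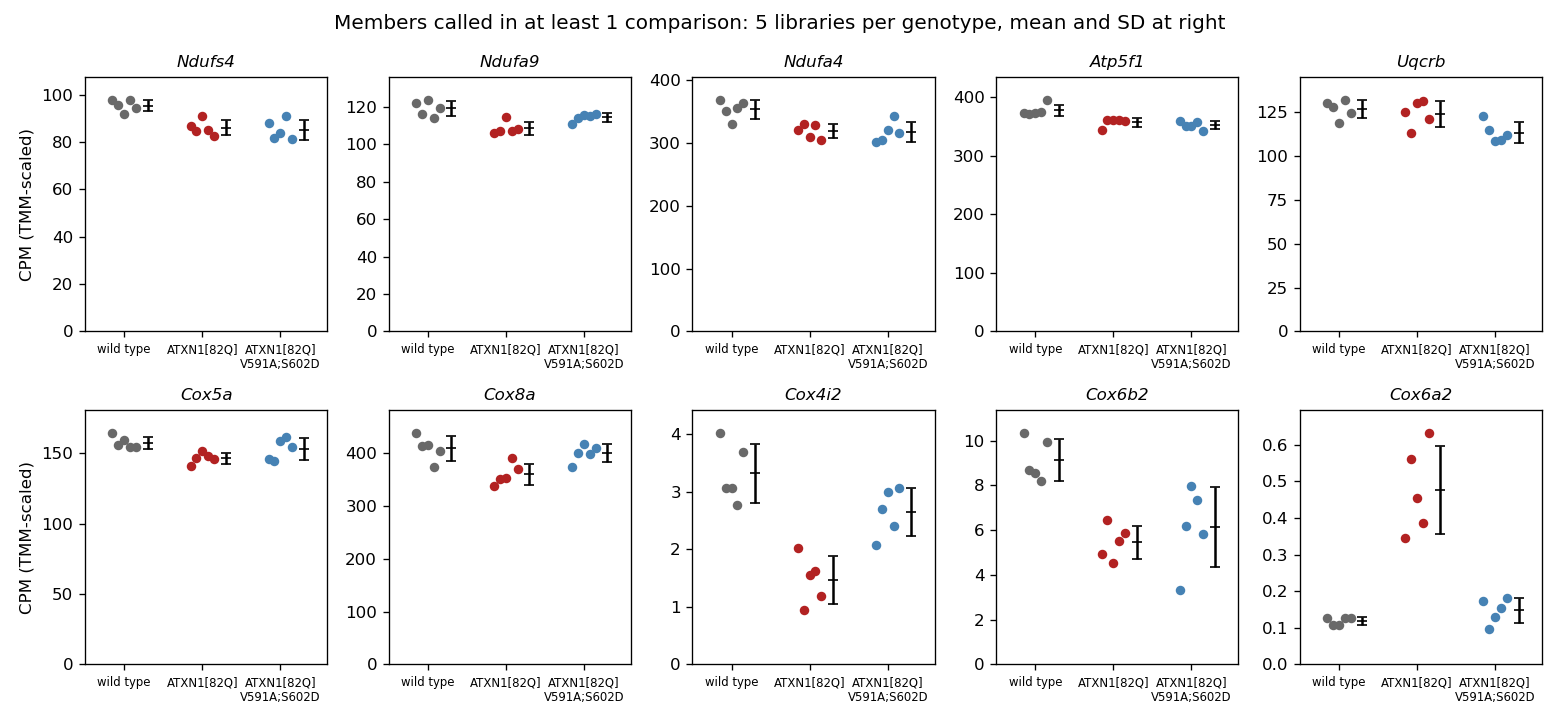
CPM of the 10 members called in at least 1 comparison in each of 15 libraries (points), with the mean and SD of 5 libraries at the right of each group, on axes from 0. Cox4i2, Cox6b2 and Cox6a2 moved furthest, at 0.954 to 2.02, 4.54 to 6.43 and 0.345 to 0.632 CPM in ATXN1[82Q].

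The larger changes were in scarce isoforms of complex IV. Cox4i2 (chromosome 2, 152754173 to 152765037, plus strand) measured 4.02, 3.06, 3.06, 2.77 and 3.70 CPM in wild type, which is 110 to 160 reads a library. It measured 2.02, 0.954, 1.55, 1.62 and 1.2 CPM in ATXN1[82Q] and 2.08, 2.71, 3.00, 2.41 and 3.07 in the substituted line. Every ATXN1[82Q] library was below every library of the other genotypes. The fall against wild type was 2.27-fold (log2 fold change -1.18 ± 0.177, SE, adjusted p = 8.03e-05), and against the substituted line 1.81-fold (log2 fold change -0.86 ± 0.178, adjusted p = 0.00212). In the low-Ttr libraries the first was smaller, at -0.74 (adjusted p = 0.0329), and the second was lost, at -0.52 (adjusted p = 0.181). The substituted line was at -0.33 (95% interval -0.69 to 0.03) against wild type. In brain, Cox4i2 is known from pericytes and other mural cells. Of 11 endothelial and mural markers, 3 rose (16.6% of all genes) and 0 fell (14.9%) in ATXN1[82Q]. The 3 were Pdgfrb, higher by 0.41, Vtn by 0.57 and Kcnj8 by 0.36 on the log2 scale. Rgs5, another mural marker, was at -0.07 (adjusted p = 0.504). The summed markers were 282 to 317 CPM in wild type, 346 to 374 CPM in ATXN1[82Q] and 296 to 326 CPM in the substituted line, and none was at 0.

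Cox6b2 (chromosome 7, 4751792 to 4753094, minus strand) measured 10.3, 8.68, 8.53, 8.21 and 9.92 CPM in the wild type, 4.94, 6.43, 4.54, 5.51 and 5.87 in ATXN1[82Q] and 3.31, 6.19, 7.96, 7.33 and 5.84 in the substituted line. All libraries of both transgenic lines were below all wild-type libraries. It fell 1.67-fold in ATXN1[82Q] (log2 fold change -0.74 ± 0.168, SE, adjusted p = 0.00287). In the substituted line it was at -0.58 ± 0.167 (adjusted p = 0.123), and the lines differed by -0.17 (95% interval -0.52 to 0.19). Its abundant counterpart Cox6b1 was at -0.06 (adjusted p = 0.0838) in ATXN1[82Q].

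Cox6a2 (chromosome 7, 128205435 to 128206387, minus strand) rested on few reads: 5, 4, 4, 5 and 5 in wild type, 13, 23, 19, 16 and 28 in ATXN1[82Q] and 7, 4, 5, 6 and 7 in the substituted line. The ATXN1[82Q] libraries were above all others. The filter asked for 0.25 CPM in at least 5 libraries, which all 5 ATXN1[82Q] libraries and 0 of the other 10 reached, so the gene had to be higher there to be tested. Its level was 3.94-fold that of wild type (log2 fold change 1.98 ± 0.274, SE, adjusted p = 3.55e-05) and 3.19-fold that of the substituted line (log2 fold change 1.68 ± 0.263, adjusted p = 0.000224). With no count filter these were 1.98 (adjusted p = 3.92e-05) and 1.68 (adjusted p = 0.000269). In the low-Ttr libraries the difference between the lines was 1.17 (adjusted p = 0.142). Its counterpart Cox6a1 was at -0.10 (adjusted p = 0.125). Cox6a2 lies within the gene Itgad (128154376 to 128223816, plus strand), which overlaps 10.3% of its exonic length. Itgad encodes a leukocyte integrin and held 0 to 5 reads in wild type, 4 to 16 in ATXN1[82Q] and 0 to 3 in the substituted line. The next integrin gene, Itgax, rose 8.15-fold in ATXN1[82Q] (adjusted p = 4.98e-07). All 12 microglia markers rose, beside 16.6% of all genes. Their sum went from 160 to 186 CPM in wild type to 291 to 328 CPM, with none at 0. No source used here states whether the counting used strand, and without it reads of Cox6a2 and of transcripts of Itgad cannot be told apart.

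The highest Cox6a2 and the lowest Cox4i2 values of ATXN1[82Q] came from libraries 2 and 5. Summed markers of brainstem neurons were 15.4 to 37.7 CPM in wild type, 27.7 to 104 CPM in ATXN1[82Q] and 28.3 to 34.7 CPM in the substituted line. Over 19 alternative settings, among them a fit without libraries 2 and 5 and fits with brainstem or choroid plexus transcripts as a covariate, Cox4i2 stayed called against wild type at log2 fold changes from -1.32 to -0.74, Cox6b2 at -0.91 to -0.68 and Cox8a at -0.22 to -0.16. Cox6a2 ranged from 1.71 to 2.07, which is no sign of stability given how it passed the filter. The other low-level members, Cox7a1, Cox7b2, Cox8b and Ndufa4l2, were not called, at -0.26, 0.29, 1.24 and 0.19 in ATXN1[82Q] with adjusted p of 0.0923, 0.158, 0.0682 and 0.27.

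Ndufs5, a complex I subunit, was listed at 0 in every library although its complex I partners were abundant. The gene BC002163 on chromosome 16 (42955631 to 42955949, plus strand), a processed pseudogene in the annotation, held 1438 to 1753 reads a library. Of its 270 50-base words, 72.6% occur in transcripts of Ndufs5 on chromosome 4. BC002163 was at -0.04 in both comparisons with wild type (adjusted p = 0.54 in ATXN1[82Q] and 0.813 in the substituted line). Of the members, 11 overlap exons of another gene over at least 10% of their length and 11 share at least 10% of their 50-base words with other transcripts. Their counts are uncertain to that extent: Ndufb6 shares 39.0% of its exonic length with Smim27, and Atp5g2 36.7% of its words with other transcripts.

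Other genes of the pathway were read from lists. Of 42 tested assembly factors, 10 fell and 0 rose in ATXN1[82Q], beside 14.9% and 16.6% of all genes. The list median log2 fold change was -0.06. Tmem70, needed for ATP synthase assembly, was furthest at -0.39, followed by Cox14 at -0.18 and Cox18 at -0.18, both needed for complex IV. In the substituted line 0 of the 42 were called, beside 1.41% of all genes. Between the lines 6 were lower and 1 higher in ATXN1[82Q], beside 14.6% and 13.5% of all genes, with Tmem70 at -0.24. The 1 higher was Cox20, named after its values were seen, at 0.18. Of 8 tested subunits and partners outside the symbol rule, Cycs, which is cytochrome c, and Atpif1, the inhibitor of ATP synthase, each fell by 0.10 on the log2 scale in ATXN1[82Q]. None of 13 mitochondrially encoded subunits is among the genes analysed here.

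Among 18 tested regulators of mitochondrial genes, 1 rose and 2 fell in ATXN1[82Q]. Nfe2l2, a factor of the oxidative stress response, rose by 0.37, while the coactivator Ppargc1b was at -0.41 and Gabpb1, a GABP subunit, at -0.12. Ppargc1a was at 0.10 (adjusted p = 0.107), Nrf1 at 0.04 and Tfam at -0.01, none of them called. Of 19 enzymes of the tricarboxylic acid cycle and its entry, 3 rose and 2 fell, led by Suclg2 at 0.53, Idh2 at 0.26 and Pcx at 0.15, with a list median of -0.01. Of 26 carriers, pores and membrane proteins of mitochondria, 5 fell and 0 rose, with the calcium uniporter Mcu at -0.30, the glutamate carrier Slc25a22 at -0.17 and Micu3 at -0.16.

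Of 16 tested glycolytic enzymes, 5 fell and 1 rose in ATXN1[82Q], with Hk2 at -1.24, Aldoc, which also marks Purkinje cell stripes, at -0.60, and Ldha at -0.22. The list median was -0.03. In the substituted line, 1 member of all these lists was called, Aldoc at -0.37 (adjusted p = 0.0192). These lists were read beside the 31.5% of all genes called in ATXN1[82Q] (16.6% higher, 14.9% lower) and 1.41% in the substituted line. Between the lines, 28.1% of all genes were called. The lists were not tested as sets.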

How the data were processed

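Per the labels' protocols, amplified cDNA was made from 10 ng of total RNA. Per the submitters' processing notes, the authors used STAR 2.5.3a, HTSeq, DESeq2 and the build mm10. The deposited values are raw counts of reads per gene. Neither the strand setting nor the annotation release is given in the sources used here. Reads in no feature were 16.8% to 18.2% of reads and stayed out of all totals.

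All 15 libraries entered one edgeR 4.0.16 quasi-likelihood fit in R 4.3.3, with TMM scaling, filterByExpr (minimum count 10) and Benjamini-Hochberg adjustment over 15843 genes. The TMM factors differed by genotype: 0.968 to 0.994 in wild type, 1.02 to 1.04 in ATXN1[82Q] and 0.980 to 1.00 in the substituted line. Fold changes, intervals and p-values come from that fit. CPM and RPKM were computed from the deposited counts, with exonic lengths and positions from GENCODE M21 (GRCm38), in which 83 members matched by symbol and 1 by synonym. The procedure was tested on simulated data. Of planted changes, 93 of 100 at 2-fold and 74 of 100 at 1.5-fold were called in the right direction, with 10 false calls. Changes as small as those of most called members were not simulated, so that test says nothing about them. Libraries of one genotype differed by more than sampling noise in all 30 pairs (chi-square divided by its degrees of freedom, 5.63 to 40.7).

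The members and lists were chosen with earlier results of these data known. Named members are core subunits, isoform sets, up to 4 called members per comparison and complex by size, and the highest and lowest level per complex, and up to 3 called genes per other list. One member is not reported here singly or drawn, but is part of all counts and sums. Alternatives were DESeq2 1.42.0, other scaling and filtering, fits on fewer libraries or with covariates, a replicate block and leaving out each library. Because PCR copies carry no molecular identifiers, reads are not independent molecules.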

Additional observations from a re-analysis of the deposited data

Results flagged for a closer look

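Over 147 groups of 5 libraries, 8 held a library set apart from the other 4, where chance gives about 1 in 20. Of these, 3 were from ATXN1[82Q] library 1, which was lowest for Cox4i1 at 443 CPM (the others 480.2 to 493), for Atp5f1 at 344 CPM (359 to 362) and for summed complex V at 4967 CPM (5175 to 5232). Wild-type library 1 was highest for Cox6a1 at 382 CPM (363 to 366) and for Cox7a1 at 5.48 CPM (3.96 to 4.36). Wild-type library 5 was highest for Atp5f1 at 394.96 CPM (372 to 376) and wild-type library 3 for Ndufs1 at 186 CPM (179.6 to 181). ATXN1[82Q] library 3 was highest for Ndufa9 at 115 CPM (106 to 108).

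The effects of the transgenes differed for 4 members by the edgeR test between the lines (ATXN1[82Q] minus the substituted line, log2): Cox6a2 by 1.68, Cox4i2 by -0.86, Cox8a by -0.15 and Uqcrb by 0.13. That is 4.88% of members, beside 28.1% of all genes. Cox6a2 passed the filter only through the ATXN1[82Q] libraries, so a higher value there was a condition of its being tested. All 4 calls were lost in the low-Ttr libraries.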

How the results depend on the processing

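No direction of a called member turned under any alternative. Median log2 fold changes over the members stayed at -0.05 to -0.02 in ATXN1[82Q], at -0.06 to -0.04 in the substituted line and at 0.00 to 0.03 between the lines when each library was left out. Members lower in ATXN1[82Q], 8 as reported, were 6 to 9 with each library left out (11.8% to 15.6% of all genes) and 4 in the 7 libraries with Ttr under 100 CPM (10.5% of all genes). Members higher, 1 as reported, were 1 to 3 (12.7% to 18.1% of all genes), and 2 with DESeq2 (2700 of 15843 genes) or with Ttr as a covariate (16.3%). In the substituted line the lower members, 1 as reported, were 0 to 4 with each library left out (0.752% to 1.62% of all genes), 6 with DESeq2 (1.96%), 3 with the Ttr covariate (1.32%), and 0 both in the low-Ttr libraries (0.87%) and with only the genotypes compared in the fit (0.988%). Members higher there were 0 to 0. Between the lines, the 2 higher were 1 to 4 (10.2% to 13.8% of all genes), 4 with the Ttr covariate (16.3%) and 0 in the low-Ttr libraries (3.83%). The 2 lower were 1 to 3 (11.5% to 15.4%), 0 in the low-Ttr libraries (5.7%), and 1 without ATXN1[82Q] libraries 2 and 5 (11.5%), an alternative chosen after seeing the data. The low-Ttr fit and those without a library held fewer libraries. For the other settings the cause was not tested.

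With the replicate block, 1 member was lower between the lines (13.8% of all genes). Sharing a number did not make libraries alike: deviations correlated over 0.1 in 4 of 15 such pairs (median -0.11, other pairs 0.05). Over 44 named members, 2382 of 2462 comparisons under alternatives kept their side of the threshold, 49 lost a call and 31 gained one. Most of these comparisons were of members without a call, so the total says little about how stable the calls are. Atp5f1 in ATXN1[82Q] lost its call in 16 of 19 settings and Cox5a in 6 of 19. Ndufs4 in the substituted line lost its call in 7 of 18. Between the lines, Uqcrb lost its call in 8 of 19 and Cox8a in 7 of 19. Each other call was lost in at most 1 setting.

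Changes under about 0.1 on the log2 scale are near the limit of 5 libraries, since the median SE of members with at least 10 CPM was 0.0376, and Cox6a2 rests on 4 to 28 reads a library.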
